A study of Homo sapiens with 16 samples.

Results

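The H3K4me1 regions lost with GSK-J4 in BE2C neuroblastoma cells were 1174 of 22886 merged autosomal regions, or 5.13%. They were selected on H3K4me1 itself. The 4 island lists of the DMSO and GSK-J4 libraries were merged wherever islands overlapped by at least 1 bp, and a merged region was kept when it overlapped an island of both DMSO libraries and of neither GSK-J4 library. The H3K4me1 values of those 4 libraries are therefore given as a description, with no test. Of the 1174 regions, 395 lay within 1 kb of a protein-coding transcription start and are called promoter regions here, and 779 were distal.

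Monomethylation of lysine 4 of histone H3 marks enhancers and the flanks of active promoters, where trimethylation of the same residue takes its place over the start site. It is written mainly by the KMT2C and KMT2D complexes. Trimethylation of lysine 27 of the same histone, written by Polycomb repressive complex 2 and removed by KDM6A and KDM6B, marks repressed genes, and GSK-J4 is an ester pro-drug that cells convert to GSK-J1, an inhibitor of these demethylases.

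BE2C is an established human neuroblastoma line with amplified MYCN. In the compound experiment the cells received 0.1% DMSO or 2.5 µM GSK-J4 for 72 h, and in the knockdown experiment a control siRNA (siCtrl) or the KDM6B siRNA #33 (siKDM6B #33) for 72 h. H3K4me1 and H3K27me3 were profiled by CUT&Tag, in which a tethered transposase cuts and tags the DNA beside an antibody-bound histone mark, in 2 libraries per group and 16 in all. The cells carried no engineered allele, KDM6B transcript was not measured in these libraries, and the knockdown groups rest on 1 siRNA.

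The depth of each library was read from the background that the narrow-peak calls imply, and was 0.0483 and 0.0569 tags per base in DMSO, 0.0547 and 0.0559 in GSK-J4, 0.0849 and 0.0902 in siCtrl, and 0.105 and 0.107 in siKDM6B #33 for H3K4me1. The H3K27me3 libraries ranged from 0.0298 to 0.0539. GSK-J4 H3K27me3 library 1 stood apart from the other libraries of that experiment, with 16531 autosomal islands of median width 3000 bp against 7123 to 7941 islands of 6600 to 7400 bp.

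The sequences at the centres of a few lost regions are printed to show what the promoter and distal members look like. Shown are 200 bases of the plus strand of hg19 around the summit of the strongest DMSO narrow peak, with each CG dinucleotide in capitals, for the 4 promoter regions gained after knockdown and the 4 distal regions lost after knockdown that had the highest control score and no annotated exon in the window. The promoter windows lay at chr5:154062192-154062391 (LARP1), chr1:160040050-160040249 (KCNJ10), chr12:75784644-75784843 (GLIPR1L2) and chr17:47653858-47654057 (NXPH3).
LARP1: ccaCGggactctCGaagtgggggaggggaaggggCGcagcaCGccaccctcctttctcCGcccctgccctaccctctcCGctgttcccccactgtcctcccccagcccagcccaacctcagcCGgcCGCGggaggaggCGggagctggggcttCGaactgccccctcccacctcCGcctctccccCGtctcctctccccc
KCNJ10: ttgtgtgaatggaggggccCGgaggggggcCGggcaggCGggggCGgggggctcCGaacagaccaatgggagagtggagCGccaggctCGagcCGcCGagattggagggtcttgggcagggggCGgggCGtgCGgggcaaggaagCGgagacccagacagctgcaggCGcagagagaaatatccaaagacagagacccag
GLIPR1L2: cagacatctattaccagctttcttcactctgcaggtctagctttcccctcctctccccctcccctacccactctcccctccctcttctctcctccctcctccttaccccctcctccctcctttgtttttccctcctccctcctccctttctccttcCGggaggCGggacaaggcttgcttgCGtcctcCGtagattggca
NXPH3: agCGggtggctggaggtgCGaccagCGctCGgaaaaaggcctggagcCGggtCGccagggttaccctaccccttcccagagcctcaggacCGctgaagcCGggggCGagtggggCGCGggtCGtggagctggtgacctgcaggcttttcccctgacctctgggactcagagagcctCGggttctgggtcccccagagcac
The distal windows, named by the nearest protein-coding gene, lay at chr5:10588883-10589082 (ANKRD33B), chr13:77542100-77542299 (ACOD1), chr2:45282403-45282602 (SIX2) and chr1:38126644-38126843 (RSPO1).
ANKRD33B: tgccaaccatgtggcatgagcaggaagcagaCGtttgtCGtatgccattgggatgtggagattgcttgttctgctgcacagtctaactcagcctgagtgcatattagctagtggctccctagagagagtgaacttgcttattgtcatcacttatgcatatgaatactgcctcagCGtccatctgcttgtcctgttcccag
ACOD1: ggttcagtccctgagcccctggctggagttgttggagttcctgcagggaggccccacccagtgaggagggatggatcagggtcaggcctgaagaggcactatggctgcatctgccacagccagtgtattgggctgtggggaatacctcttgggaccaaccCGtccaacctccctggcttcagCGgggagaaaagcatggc
SIX2: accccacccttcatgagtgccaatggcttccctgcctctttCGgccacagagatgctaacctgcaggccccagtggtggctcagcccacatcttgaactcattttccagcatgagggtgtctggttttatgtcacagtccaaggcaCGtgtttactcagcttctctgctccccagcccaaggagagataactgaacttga
RSPO1: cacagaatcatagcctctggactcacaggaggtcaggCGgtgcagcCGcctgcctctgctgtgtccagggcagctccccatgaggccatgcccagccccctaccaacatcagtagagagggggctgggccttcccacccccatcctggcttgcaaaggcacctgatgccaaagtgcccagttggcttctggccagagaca
The promoter windows held 13, 14, 4 and 13 CG dinucleotides in that order, and the distal windows held 3, 2, 2 and 2. The choice of promoter windows on one side and distal windows on the other sets this contrast, which says nothing of the direction after knockdown.

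The lost regions were narrow and weak in the control libraries. Their median width was 2600 bp, with 90% of them between 1200 and 5200 bp, against 4900 bp for the 11956 regions called in all 4 libraries, and together they covered 3.26 Mb. The island score is the caller's measure of how far the reads in an island exceed the background, and the lower of the DMSO scores had a median of 61.0 (quartiles 54.6 and 72.8) at the lost regions and 155 at the regions called in all 4. The lowest scores in the DMSO lists were 52.6 and 48.8, and 895 lost regions (76.2%) had a lower DMSO score of at most 1.5 times the smaller of these. The 1367 regions just outside the rule, called in both DMSO libraries and exactly 1 GSK-J4 library, had a median lower DMSO score of 68.6 and a median GSK-J4 score of 64.9 in the library that called them.

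**Figure D1:**
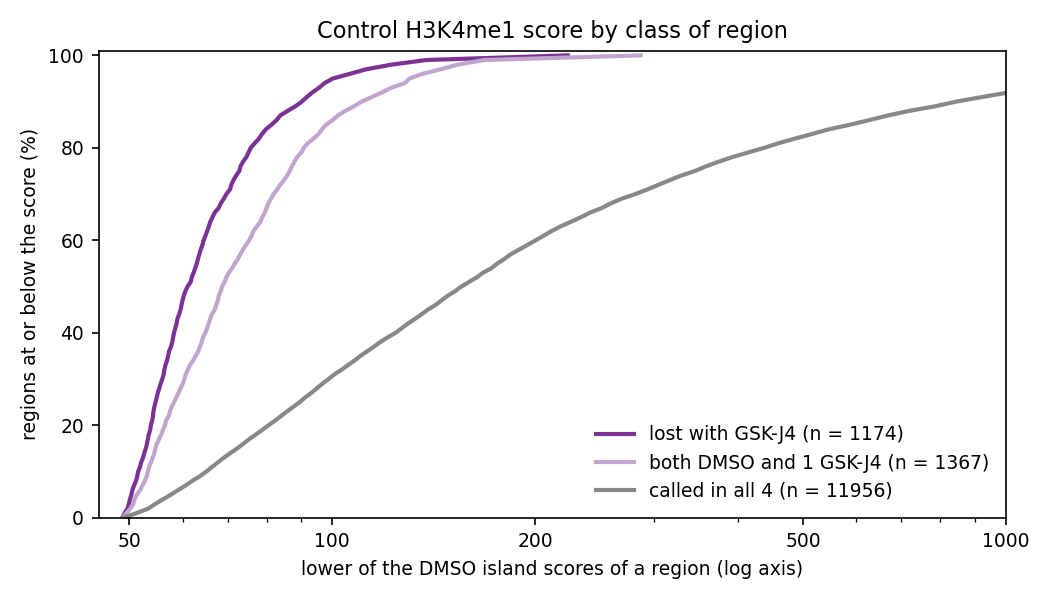
Cumulative share of regions (y axis, percent of the class) at or below each value of the lower DMSO island score (x axis, log scale), for lost regions, regions called in both DMSO and 1 GSK-J4 library, and regions called in all 4 libraries. The lost regions rise most steeply, with a median of 61.0, just above the lowest scores the caller reported, while the regions called in all 4 have a median of 155.

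The loss was of an island call, and narrow peaks were often present in GSK-J4. Narrow peaks, which mark shorter stretches above the local background, were present at 77.6% and 73.3% of the lost regions in the DMSO libraries and at 48.9% and 50.5% in the GSK-J4 libraries, against 74.7% and 68.9% and then 74.2% and 75% of all merged regions. In GSK-J4, 354 lost regions had a narrow peak in both libraries, 459 in exactly 1 and 361 (30.7%) in neither, whether or not DMSO had one, and 137 lost regions had no peak in either DMSO library. The top narrow-peak fold is the reads at the summit over the local background, with 1 added to each. With backgrounds as low as those given above, it follows the number of reads and rises with the depth of a library. The fold was higher in both DMSO libraries than in both GSK-J4 libraries at 434 lost regions (37.0%), in the contrast that the rule used. This was so at 18.3% of all merged regions and 27.7% of those just outside the rule. Where a peak was present, the median top fold was 5.35 and 5.26 in DMSO and 4.52 and 4.56 in GSK-J4.

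The lost regions held transcription starts more often than regions that were kept or gained. The share with a protein-coding start within 1 kb was 33.6% (95% Wilson interval 31.0 to 36.4), against 26.8% (26.0 to 27.6) of the regions called in all 4 libraries, 8.73% (7.51 to 10.1) of the 1787 regions gained with GSK-J4 and 24.6% of all merged regions. These intervals cover counting error over regions only, and regions are not replicates. Nearly the same share was found just outside the rule, at 34.5% (32.0 to 37.0) of the regions called in both DMSO libraries and 1 GSK-J4 library. Regions called in a lone library showed the same division, with starts at 34.7% and 34.4% of those found only in DMSO library 1 or 2 and at 9.50% and 12.2% of those found only in GSK-J4 library 1 or 2.

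Of the 395 promoter regions, 384 held a start inside and 54 had starts of 2 or more genes within 1 kb, so that 449 genes had a start within 1 kb of a lost region. The centre of a region, taken as the summit of its strongest DMSO narrow peak or as its middle where it had none, lay a median of 331 bp from the named start, against 873 bp at the promoter regions called in all 4 libraries, whose median width was 5800 bp against 2400 bp. It was downstream of the start at 151 (38.2%), against 47.3% of the promoter regions called in all 4. The distal regions lay a median of 54.1 kb from the nearest start, with 73 at 1 to 5 kb, 136 at 5 to 20 kb, 292 at 20 to 100 kb and 278 farther. Their centres fell in introns of protein-coding genes at 310, in exons at 19 and outside such genes at 450. The nearest region called in all 4 libraries was a median of 32.6 kb away from a lost region, within 10 kb at 327 and over 100 kb away at 315. By chromosome, the lost share of merged regions ran from 3.29% on chromosome 22 to 8.85% on chromosome 19, where 45 of the 80 lost regions were at promoters.

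**Figure D2:**
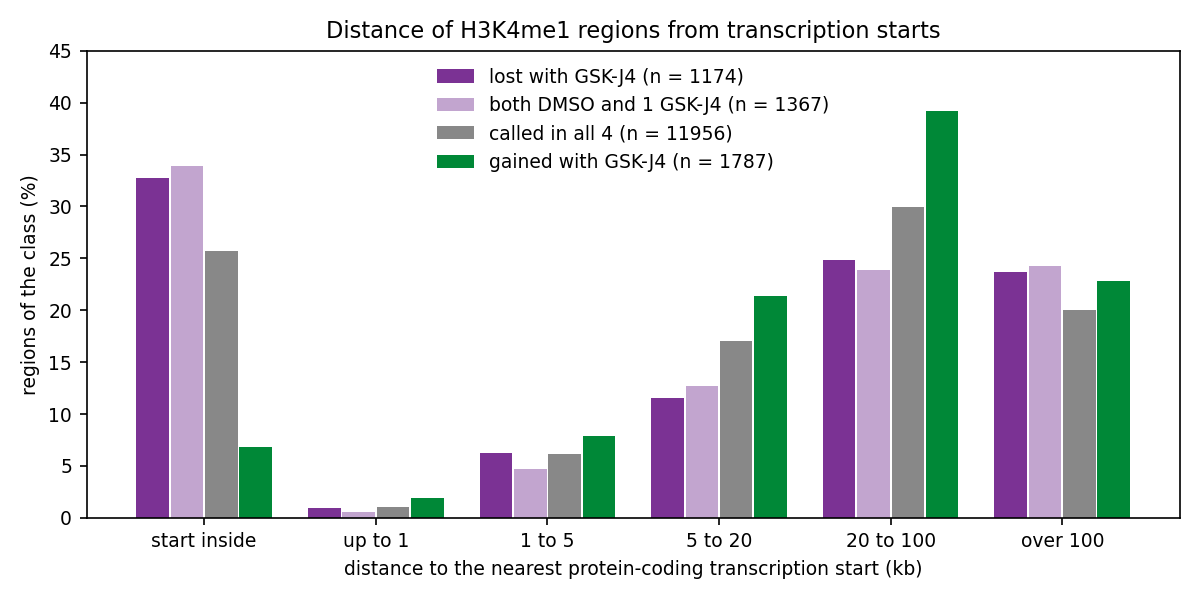
Share of each class of H3K4me1 region (y axis, percent) by distance to the nearest protein-coding transcription start (x axis, kb). A start lies inside 32.7% of the lost regions, 33.9% of those called in both DMSO and 1 GSK-J4 library, 25.8% of those called in all 4 and 6.83% of the gained regions.

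The promoter regions were rich in CpG. In windows of 500 bp at the centre (the middle of the region for the 11.7% of lost regions with no DMSO peak), the median number of CG dinucleotides was 37 at lost promoter regions and 6 at lost distal regions, against 21 and 8 at the promoter and distal regions called in all 4 libraries. Windows with over 50% GC and an observed over expected CG ratio above 0.6 made up 69.6% of the lost promoter regions (275 of 395) and 40.9% of the promoter regions called in all 4. Among distal regions the shares were 8.47% and 4.08%. The promoter regions just outside the rule were alike in this, at 68.8%.

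Short motifs were searched on both strands of the same windows, and the shares below are a description of letters, not of binding. The E-box CACGTG, the core that MYC and MYCN proteins recognise, was in 10.8% of lost regions and 9.49% of the 14497 regions called in both DMSO libraries. The E-box CAGCTG, typical of neuronal basic helix-loop-helix factors, was in 31.9% and 37.2%. The GATA-type motif AGATAA was in 24.8% and 22.2%, with 32.2% at lost distal regions against 25.5% at the distal regions called in all 4 libraries and 31.9% at the distal regions just outside the rule. The AP-1 motif TGANTCA was in 11.7% and 15.1%, and the CTCF core in 4.17% and 6.10%. The E2F motifs TTTCCCGC and TTTGGCGC were in 1.70% and 0.256% of lost regions, against 1.24% and 0.428%.

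The 12 promoter regions with the highest control scores lay at genes of varied roles. The region at ID2, which encodes a helix-loop-helix inhibitor of transcription factors that also binds RB-family proteins, spanned chr2:8815801-8823600 in and around the gene and had the highest score of all lost regions. Its island scores were 271 and 224 in the DMSO libraries, and its top narrow-peak fold was 7.79 and 5.56 in DMSO and 0 in both GSK-J4 libraries, that is, with no peak. In the knockdown libraries its top fold was 9.13 and 5.85 in siCtrl and 9.96 and 9.73 in siKDM6B #33, with an island in all 4. At ID2 the compound libraries thus separated fully while the knockdown libraries did not lose the mark.

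The region at DAG1, which encodes dystroglycan, a receptor for the extracellular matrix, lay at chr3:49505801-49508000. Its top fold was 9.51 and 12.1 in DMSO, 4.41 and 0 in GSK-J4, 10.5 and 12.7 in siCtrl and 18.5 and 20.7 in siKDM6B #33. The GSK-J4 libraries were below both DMSO libraries. The siKDM6B #33 libraries were above both siCtrl libraries, as at 83.3% of lost and 65.9% of all promoter regions. The region at ST7 (chr7:116659601-116661200) had folds of 8.38 and 9.97 in DMSO, 5.18 and 5.08 in GSK-J4, 11.9 and 11 in siCtrl and 16.2 and 20.4 in siKDM6B #33, the same order of groups. RAVER1, a partner of the splicing regulator PTB, shared its region (chr19:10442801-10446600) with the start of ICAM3, an adhesion molecule, and its fold was 0 and 6.58 in DMSO, 4.37 and 4.38 in GSK-J4, 10.5 and 9.96 in siCtrl and 15.4 and 16.5 in siKDM6B #33. There the DMSO libraries overlapped the GSK-J4 libraries in peak fold although their island calls did not.

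The other leading promoter regions lay at MAPK9 (the kinase JNK2), COQ8B (coenzyme Q synthesis), FOXO3 (a forkhead factor of stress responses), CNN2 (calponin 2), APBA1 (a neuronal adaptor), SNAI2, FSD1 and SEMA6B (a semaphorin), with lower DMSO scores from 106 to 156. MAPK9, COQ8B, FOXO3, CNN2, APBA1 and SNAI2 kept islands in all 4 knockdown libraries. At MAPK9 the fold was 4.39 and 0 in DMSO and 0 and 3.44 in GSK-J4, and at FOXO3 it was 4.68 and 0 in DMSO and 0 and 4.30 in GSK-J4, so the peaks overlapped between groups. FSD1 and SEMA6B were the exceptions in the knockdown, with islands in both siCtrl libraries and neither siKDM6B #33 library. At SEMA6B the top fold was 15.4 and 9.58 in siCtrl and 7.73 and 0 in siKDM6B #33.

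The distal regions with the highest control scores lay in introns of SMAD9 (a transducer of BMP signals), RBM26, GNA14 (a G protein alpha subunit), RAPGEF4 (a cAMP-activated exchange factor for Rap), ANKRD33B and NFIA (a transcription factor of glial and neural differentiation), or outside protein-coding genes nearest to CHD2, PPP1R3B, BCHE, ACOD1, ARRDC3 and SIX2. The region in RBM26 (chr13:79966801-79968800) had the highest fold of these 12 in both DMSO libraries and in all 4 knockdown libraries, with 10.2 and 14.4 in DMSO, 6.36 and 4.47 in GSK-J4, 19.5 and 17.6 in siCtrl and 24.1 and 21.9 in siKDM6B #33. It lay 11.1 kb from the RBM26 start. In NFIA (chr1:61350401-61354600, 19.5 kb from a start) the fold was 6.25 and 7.03 in DMSO and 5.27 and 5.29 in GSK-J4, and all 4 knockdown libraries had an island. Near PPP1R3B, a glycogen-targeting subunit of protein phosphatase 1, the fold was 6.90 and 0 in DMSO and 0 in both GSK-J4 libraries, so that only the island scores of 183 and 140 placed DMSO library 2 above them.

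**Figure D3:**
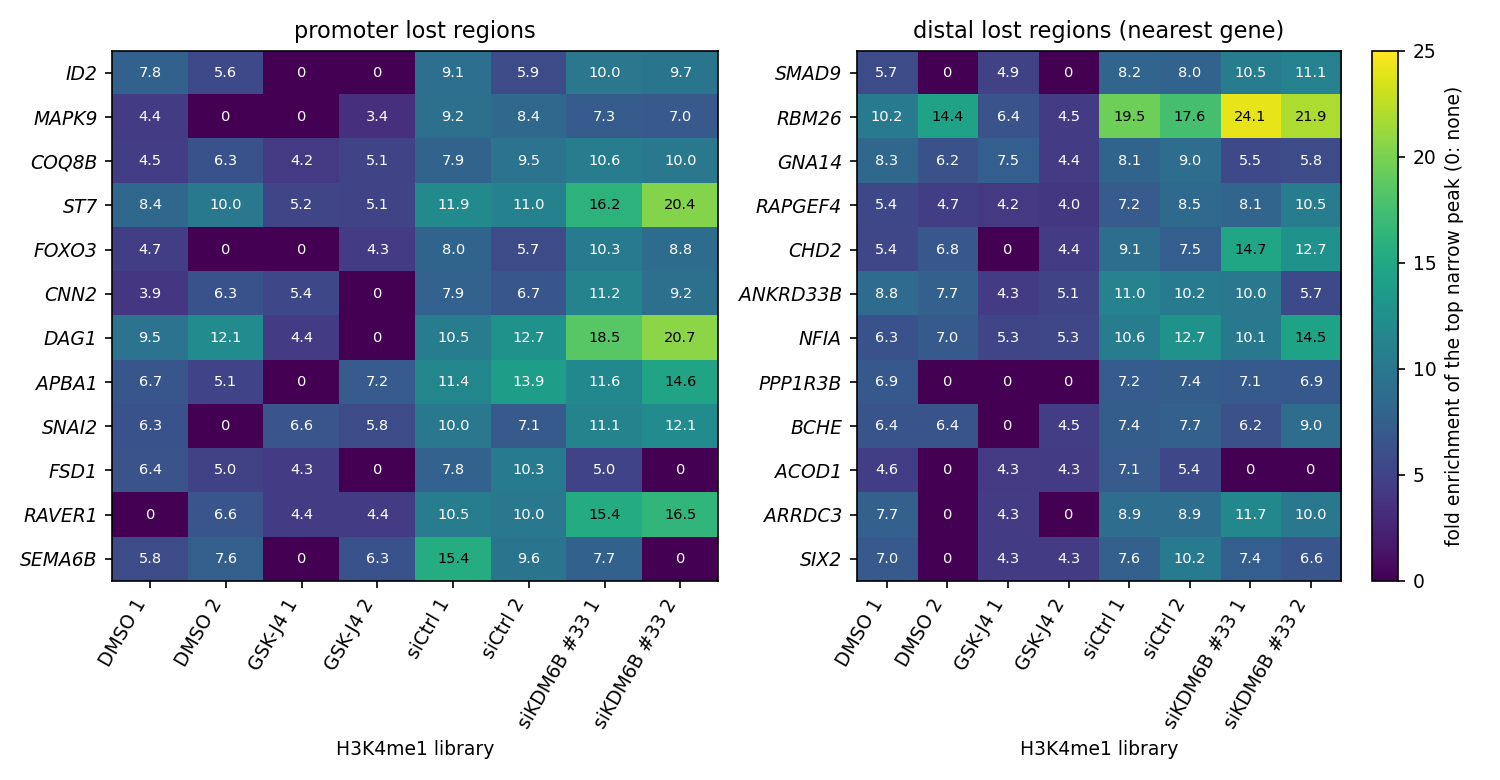
Fold enrichment of the top H3K4me1 narrow peak (colour and printed value, 0 where the list has no peak) in each of the 8 H3K4me1 libraries (x axis) for the 12 promoter and the 12 distal lost regions with the highest lower DMSO score (y axis, by nearest gene). ID2 has no peak in either GSK-J4 library and folds of 9.96 and 9.73 in siKDM6B #33, and RBM26 reaches 24.1 in siKDM6B #33.

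The first question for libraries that the rule did not use was whether the regions lost with GSK-J4 also lost H3K4me1 when KDM6B was knocked down. Distal lost regions did so more often than promoter lost regions, which gained calls. The share of lost regions overlapping an island was 87.1% and 85.7% in siCtrl and 71.0% and 71.2% in siKDM6B #33, a difference of -15.3 percentage points (means 86.4% ± 0.964 and 71.1% ± 0.181, SD, n = 2 libraries, exact two-sided permutation p = 0.33). This p is the smallest that the exact permutation test can give with 2 libraries against 2. Without DMSO library 2 in the rule the difference was -6.46 points, and with at least 1 narrow peak as the call it was -3.11 points. Over all merged regions the island shares were 78.5% and 78.2% in siCtrl and 69.1% and 68.8% in siKDM6B #33. The shares with at least 1 narrow peak were 87.9% and 87.7%, then 83.8% and 83.5%, over all merged regions. At the lost regions they were 91.6% and 91.2%, then 88.8% and 87.7%, so by that call the lost regions fell no more than all.

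The promoter and distal members moved in opposite directions. At the 395 promoter regions the share called was 84.3% and 81.3% in siCtrl and 93.9% in both siKDM6B #33 libraries, a rise of 11.1 points that did not overlap between groups. All 5635 promoter regions rose by 13.3 points, so the size of the rise was not particular to the lost ones. At the 779 distal regions the share was 88.4% and 87.9% in siCtrl and 59.3% and 59.7% in siKDM6B #33, a difference of -28.7 points, against -16.8 points over all 17251 distal regions. The promoter share minus the distal share was -5.41 ± 1.79 in siCtrl and 34.4 ± 0.272 in siKDM6B #33 (SD, n = 2 libraries), a change of 39.8 points (exact two-sided permutation p = 0.33, the smallest this test can give). With at least 1 narrow peak as the call this change was 15 points. By that call lost distal regions went from 91.7% and 91.5% to 84.2% and 82.7%, and all distal regions from 88.0% and 87.9% to 80.2% and 79.8%. Lost promoter regions went from 91.4% and 90.6% to 98.0% and 97.7%, and all promoter regions from 87.6% and 87.0% to 94.8% and 94.7%. The larger fall at lost distal regions was thus one of island calls, and by narrow peaks it was near that of all distal regions.

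**Figure D4:**
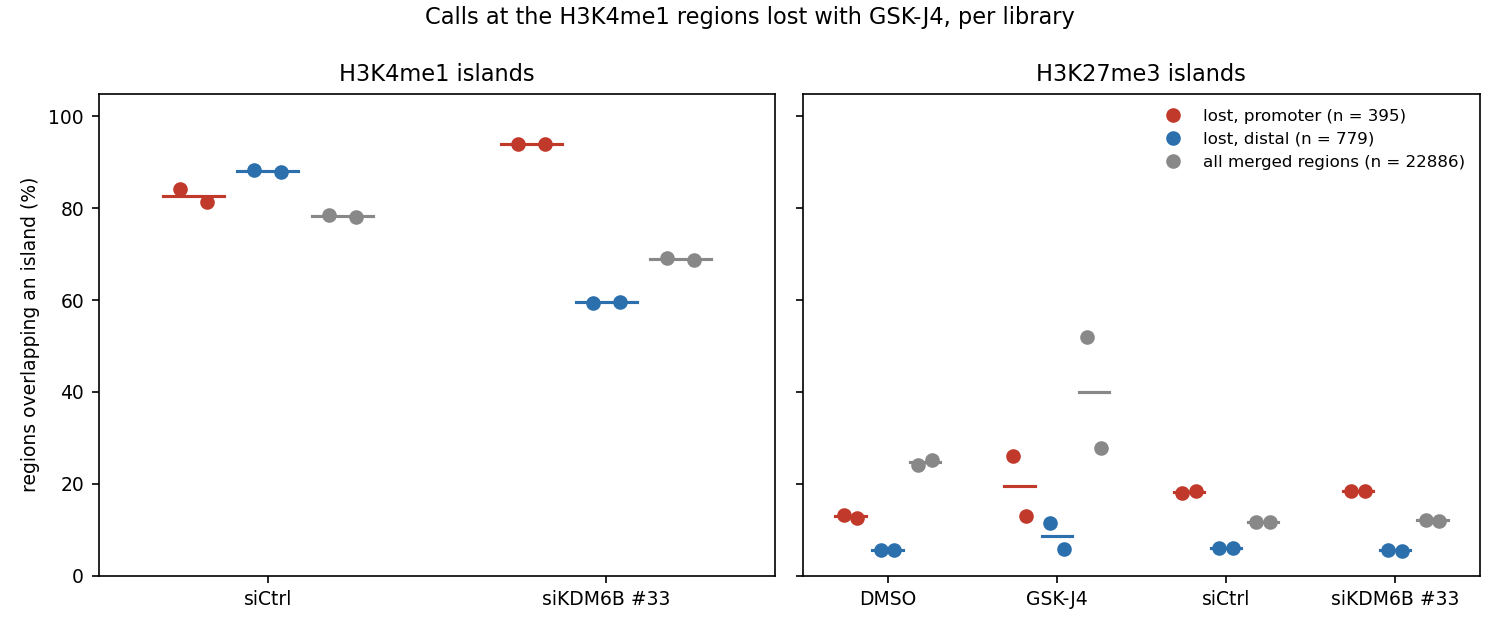
Percent of regions overlapping an island (y axis) in each library (points; the short line is the mean of 2 libraries) for lost promoter regions, lost distal regions and all merged regions. In H3K4me1, siKDM6B #33 libraries called 93.9% of the promoter and 59.3% and 59.7% of the distal lost regions, and GSK-J4 library 1 has the highest H3K27me3 share, 26.1% of the promoter and 11.6% of the distal lost regions.

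Region by region, 236 lost regions (20.1%) were called in both siCtrl and neither siKDM6B #33 library, against 13.2% of all merged regions, and 67 (5.71%) were called in both siKDM6B #33 and neither siCtrl library, against 5.70% of all. Of the 236 lost in both experiments 223 were distal and 13 (5.51%) were promoter regions, against 5.38% promoter regions among all merged regions lost after knockdown, and of the 67 gained after knockdown 44 (65.7%) were promoter regions, against 60.7% of all merged regions gained after knockdown. A further 675 (57.5%, against 57.1% of all) were called in all 4 knockdown libraries, 40 (3.41%, against 11.5%) in none and 156 (13.3%, against 12.4%) in another combination. Among promoter regions, 11.1% of the lost and 14.1% of all were gained after knockdown. Of the regions called in neither siCtrl library, 67 of 122 lost regions (54.9%) were in both siKDM6B #33 libraries, against 31.0% of all merged regions and 59.9% of those just outside the rule.

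The distal share was also taken only over regions called in both siCtrl libraries. There 223 of 663 lost distal regions (33.6%) were in neither siKDM6B #33 library, against 177 of 794 (22.3%) of the distal regions just outside the rule, 929 of 8409 (11%) of those called in all 4 compound libraries and 2866 of 13031 (22.0%) of all distal regions. Of the regions gained with GSK-J4 that were called in both siCtrl libraries, promoter regions included, 394 of 679 (58.0%) were in neither siKDM6B #33 library, so a fall after knockdown was not particular to the lost regions. The median lower DMSO score was 60.4 in lost distal regions and 149 in distal regions called in all 4, and the part of this difference in the shares was not tested.

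**Figure D5:**
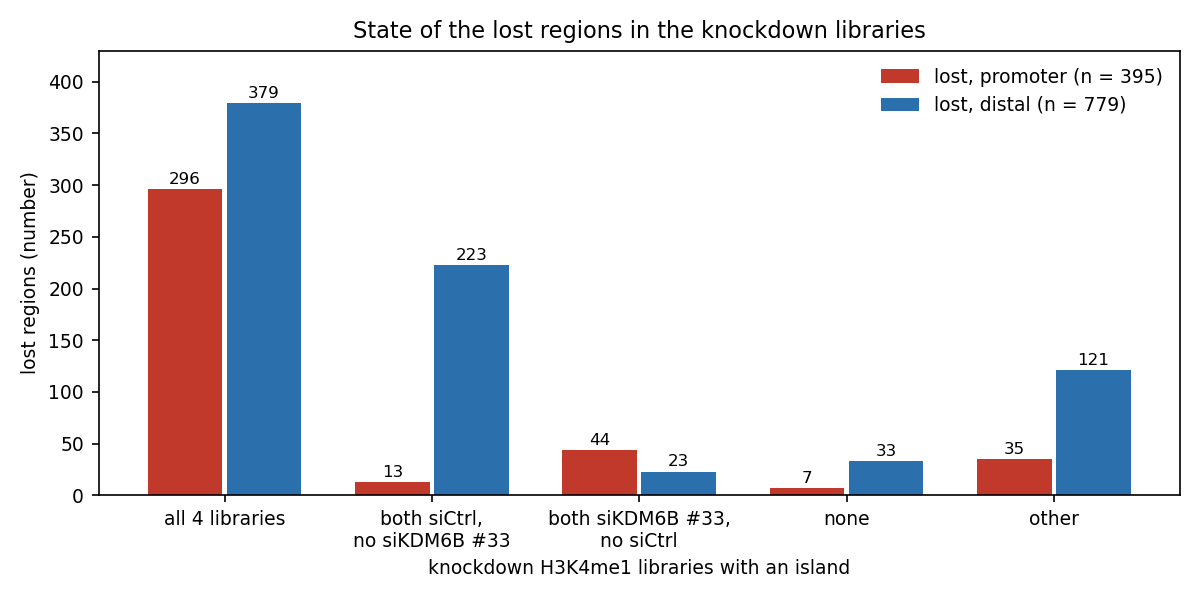
Number of lost regions (y axis) by which of the 4 knockdown H3K4me1 libraries had an island (x axis), for the 395 promoter and 779 distal lost regions. Of the promoter regions 296 are in all 4 libraries (3900 of the 5635 promoter regions in all). In both siCtrl and neither siKDM6B #33 library were 223 distal regions (28.6%, against 16.6% of all distal regions) and 13 promoter regions (3.29%, against 2.89% of all promoter regions).

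The strength of the narrow peaks was higher after knockdown at most promoter regions, while at distal regions it did not follow the fall in island calls. This measure was added after the island calls had been seen. The top fold was higher in both siKDM6B #33 libraries than in both siCtrl libraries at 534 lost regions (45.5%, against 33.6% of all merged regions), and lower in both at 272 (23.2%, against 28.1%). At promoter regions it was higher at 329 of 395 (83.3%, against 65.9% of all promoter regions and 83.0% of the promoter regions just outside the rule) and lower at 19, and at distal regions it was higher at 205 (26.3%, against 23.1% of all distal regions) and lower at 253 (32.5%, against 33.3%), near the background shares. Where a peak was present, the median top fold at lost promoter regions was 7.07 and 6.87 in siCtrl and 11.6 and 11.7 in siKDM6B #33, and at lost distal regions 7.39 and 7.36 against 7.50 and 7.54. The siKDM6B #33 libraries were deeper than the siCtrl libraries, and the part of depth in these folds was not tested.

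What counts as a call mattered for the lost regions as a whole. With at least 1 narrow peak of -log10 q of 5 or more in place of an island, 71.4% and 68.2% of lost regions were called in siCtrl and 74.7% and 73.7% in siKDM6B #33, a rise of 4.39 points in place of a fall. Over all merged regions these shares were 69.2% and 68.1% in siCtrl and 69.5% and 69.1% in siKDM6B #33. The promoter minus distal change kept its direction, at 29.8 points, with 71.4% and 65.6% of promoter regions in siCtrl and 93.4% and 91.9% in siKDM6B #33, against 67.8% and 66.6% and then 88.5% and 87.9% of all promoter regions. The distal lost regions had 71.4% and 69.6% in siCtrl and 65.2% and 64.4% in siKDM6B #33, against 69.7% and 68.5% and then 63.3% and 62.9% of all distal regions.

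Named regions of each kind are given next. They were chosen by the island calls of the knockdown libraries, so their peak folds in those libraries are a description only. Those lost after knockdown with the highest control scores were in ANKRD33B and near ACOD1 (which makes itaconate), SIX2 (a homeobox factor), RSPO1 (a Wnt agonist) and SYT10 (a synaptotagmin). Near SIX2 (chr2:45279601-45284800, 43.0 kb from its start) the peak fold was 7.65 and 10.2 in siCtrl and 7.45 and 6.60 in siKDM6B #33, and near ACOD1 (chr13:77539001-77544000) it was 7.15 and 5.43 in siCtrl and 0 in both siKDM6B #33 libraries. The latter groups did not overlap, and neither did the former. Near RSPO1 they overlapped, with 6.50 and 8.07 in siCtrl and 4.86 and 7.28 in siKDM6B #33. A lower fold in both siKDM6B #33 libraries was found at 32.5% of lost distal and 33.3% of all distal regions. Of the 236, 3 (1.27%) were CpG-rich by the measure above, against 0.792% of all merged regions lost after knockdown.

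Those gained after knockdown with the highest control scores were at the promoters of CA7 (a carbonic anhydrase), LARP1 (a translational regulator) and CPEB2 (a regulator of polyadenylation) and distal to EN2 (a homeobox factor) and ANXA2R. At CPEB2 (chr4:15003001-15006400) the fold was 6.71 and 6.02 in DMSO, 3.63 and 0 in GSK-J4, 0 in both siCtrl libraries and 8.88 and 8.03 in siKDM6B #33. CPEB2 thus had an island in both DMSO libraries and in neither siCtrl library, the controls of the separate experiments. Of the 67 regions gained after knockdown, 43 (64.2%) were CpG-rich, against 54.8% of all merged regions gained after knockdown.

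The H3K27me3 libraries addressed whether the lost regions carried the mark that KDM6B removes. Most lost regions had no H3K27me3 island, and their share with one was below that of all merged regions in the compound libraries and closer to it in the knockdown libraries. In the compound experiment 8.09% and 7.92% of the lost regions overlapped an H3K27me3 island in DMSO and 16.4% and 8.18% in GSK-J4 (means 8.01% ± 0.120 and 12.3% ± 5.84, SD, n = 2 libraries, difference 4.30 points, exact two-sided permutation p = 0.33). Without GSK-J4 library 1 the difference was 0.170 points, so it rested on that library. Over all merged regions the shares were 24.0% and 25.3% in DMSO and 52.0% and 27.9% in GSK-J4.

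By length, H3K27me3 islands covered 8.85% and 8.59% of the lost regions in DMSO, 13.1% and 8.51% in GSK-J4, and 33.7% and 36.5% of all merged regions in DMSO. In DMSO library 1 the covered length was 43.2% for the regions called in all 4 compound libraries, 13.6% for those just outside the rule and 1.56% for the gained regions. The part of region width in these differences was not tested. In siCtrl the coverage was 9.67% and 9.62% of the lost and 10.7% of all merged regions in both libraries. H3K27me3 was called in both GSK-J4 and neither DMSO library at 4 lost regions (0.341%, against 3.15% of all merged regions), the promoters of PRCC, LHX9 (a LIM homeobox factor) and GLDN and an intron of DENND1B.

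In the knockdown experiment the H3K27me3 shares were 10.1% and 10.2% in siCtrl and 9.97% and 9.80% in siKDM6B #33, a difference of -0.256 points (means 10.1% ± 0.120 and 9.88% ± 0.120, SD, n = 2 libraries, exact two-sided permutation p = 0.33). The direction turned under other calls, to 0.0714 points with equal covered length, 2.43 points with at least 1 narrow peak and 1.15 points with strict narrow peaks. Over all merged regions the shares were 11.7% and 11.8% in siCtrl and 12.1% and 12% in siKDM6B #33. The lost promoter regions had 18.0% and 18.5% in siCtrl and 18.5% in both siKDM6B #33 libraries (29.7% and 29.8%, then 30.3% and 30.2%, over all promoter regions), and the distal regions 6.03% in both siCtrl libraries (5.87% and 5.85% over all distal regions) and 5.65% and 5.39% in siKDM6B #33. H3K27me3 was gained after knockdown at 2 lost regions (0.170%, against 0.450% of all), the promoters of SOX9 and KHSRP, and lost at 3 (0.256%, against 0.262%), the promoters of PIH1D1 and TMEM170B and a region near SLC32A1.

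H3K27me3 was more frequent at the lost regions that gained H3K4me1 after knockdown than at the others. It was called in both siCtrl libraries at 39 of these 67 regions (58.2%), at 2 of the 236 lost in both experiments (0.847%) and at 32 of the 675 called in all 4 knockdown libraries (4.74%). The corresponding shares over all merged regions were 61.2%, 1.29% and 7.47%, so the division was not particular to the lost regions. At CA7 (chr16:66876801-66881200) all 8 H3K27me3 libraries had an island, as did 71 lost regions in total (6.05%, against 8.93% of all merged regions), while 929 (79.1%, against 45.5%) had none in any of the 8. The last share depends on GSK-J4 library 1, which alone had an island at 52.0% of all merged regions and 16.4% of the lost. In siCtrl the shares with an island were 10.1% and 10.2% of the lost and 11.7% and 11.8% of all merged regions.

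Members of the fixed gene lists were found at both kinds of region. A lost region lay within 1 kb of a start of 3 of 23 adrenergic core regulatory factors (GATA3, INSM1, LMO1), 2 of 21 regulators of the RB pathway (CDK6, CDKN1B), 3 of 40 cell cycle and E2F target genes (MCM3, MCM7, MYBL2), 2 of 32 mesenchymal genes (SNAI2, SOX9), 1 of 20 stress response genes (EIF2AK3) and 1 of 20 catecholamine and granule genes (CHGB). No member was found at the starts of the genes listed with an autosomal start among histone methylation enzymes (25), axon guidance genes (39), immediate early genes (22) and cohesin and CTCF genes (10). For comparison, 449 of 18877 protein-coding genes (2.38%) had a lost region at a start. H3K4me1 was called in all 4 compound libraries within 1 kb of a start of 11 of the 23 adrenergic factors, of 10 of the 32 mesenchymal genes and of 3409 of all 18877.

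GATA3, a zinc-finger factor of the sympathetic lineage, had 3 lost regions nearest to its starts. The promoter region at chr10:8092801-8097000 had island scores of 79.7 and 94.3 in DMSO but no narrow peak in any of the 4 compound libraries, and its peak fold was 3.57 and 5.59 in siCtrl and 7.17 and 5.11 in siKDM6B #33. The second lay in the gene at chr10:8088801-8091600 and the third 189 kb from a start, at chr10:8285601-8289200. All 3 were called in all 4 knockdown libraries and in no H3K27me3 library.

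The INSM1 promoter, which drives a zinc-finger factor of neuroendocrine cells, behaved differently. Its region (chr20:20347201-20350600) had scores of 53.5 and 65.8 in DMSO, near the lowest the caller gave, and a peak fold of 4.27 and 0 in DMSO against 4.48 and 3.50 in GSK-J4, so the peak values overlapped. It was gained after knockdown, with a fold of 5.93 and 0 in siCtrl and 9.32 and 7.36 in siKDM6B #33, and all 8 H3K27me3 libraries had an island there. The LMO1 promoter (chr11:8289201-8291200), at a neuroblastoma susceptibility gene, was called in all 4 knockdown libraries.

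Among cell cycle genes, the region at CDKN1B, which encodes the inhibitor p27, lay at chr12:12866801-12871000 with a peak fold of 5.77 and 7.65 in DMSO, 0 and 4.39 in GSK-J4, 4.64 and 4.86 in siCtrl and 10.5 and 9.37 in siKDM6B #33. At CDK6 (chr7:92461801-92463800), the G1 kinase restrained by INK4 proteins, the fold was 5.64 and 4.24 in DMSO, 0 in both GSK-J4 libraries, 6.02 and 5.13 in siCtrl and 8.95 and 10.1 in siKDM6B #33. MYBL2 (chr20:42294001-42297000), a cell cycle transcription factor, had 6.48 and 4.16 in DMSO, 0 in both GSK-J4 libraries, 10.2 and 7.79 in siCtrl and 23 and 14.7 in siKDM6B #33. In all 3 the DMSO libraries were above the GSK-J4 libraries and the siKDM6B #33 libraries above the siCtrl libraries. The knockdown order was found at 83.3% of lost and 65.9% of all promoter regions. The compound order, in the contrast that the rule used, was found at 41.5% of lost and 24.4% of all promoter regions.

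The replication helicase genes were less clear in the compound libraries. At MCM7 (chr7:99697601-99700200), whose region also holds the start of AP4M1, the fold was 5.21 and 5.31 in DMSO and 0 and 5.46 in GSK-J4, and at MCM3 (chr6:52148801-52150000) it was 7.12 and 9.18 in DMSO and 8.63 and 4.31 in GSK-J4. Both groups overlapped. In the knockdown libraries MCM7 had 10.1 and 7.97 in siCtrl and 14.9 and 13.3 in siKDM6B #33, and MCM3 had 9.20 and 10.7 against 18.3 and 16.4, with no overlap. Folds were likewise higher in both siKDM6B #33 libraries at 83.3% of lost and 65.9% of all promoter regions.

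The EIF2AK3 promoter (chr2:88926001-88927600), at the gene of the stress kinase PERK, had a fold of 6.96 and 4.41 in DMSO and no peak in GSK-J4, and an island in siCtrl library 1 and both siKDM6B #33 libraries. CHGB, which encodes the granule protein chromogranin B (chr20:5891201-5892600), kept peaks in GSK-J4 at 7.42 and 7.36, against 5.26 and 8.97 in DMSO. Of the genes central to the study, AURKB, a mitotic kinase, was nearest to a lost region, 9.70 kb from its start (chr17:8123601-8127400). KDM6B, MYCN, GACAT3, CYRIA (FAM49A), E2F8, NAV2 and AKT1 had none nearest to a start or within 5 kb of the gene body. The same held for CCNE1, BUB1, BIRC5, CDKN1A, EZH2, SUZ12 and EED. The rule cannot show a fall in signal where an island remained in a GSK-J4 library, so these absences do not mean unchanged H3K4me1. The study reports its most significant H3K4me1 decrease at the MYCN super-enhancer, where several peaks rose with GSK-J4.

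Lost regions seldom clustered at 1 gene. Of the genes nearest to a lost region, 898 had 1, 97 had 2, 18 had 3 and 7 had 4. The 7 were CDH5, NXNL2, SCARB1, SIPA1L1, SOX9, TBL1XR1 and TENM3, and at most 1 of the 4 regions of each was at a promoter. At SOX9, a factor of neural crest and mesenchymal cells, the promoter region (chr17:70113201-70120400) was joined by regions 308, 418 and 952 kb away, all called in all 4 knockdown libraries. Its promoter fold was 3.96 and 6.45 in DMSO, 4.21 and 0 in GSK-J4, 14.2 and 6.88 in siCtrl and 17.7 and 17.9 in siKDM6B #33. The compound groups overlapped there and the knockdown groups did not. Folds were higher in both siKDM6B #33 libraries at 83.3% of lost promoter regions.

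Of the 37 distal lost regions nearest to list genes, 22 were called in all 4 knockdown libraries, 7 were lost after knockdown and 8 were in another combination. Over all 779 distal lost regions, 48.7% were called in all 4 and 28.6% were lost after knockdown. The one near CCND1, the cyclin D1 gene, was the closest to a start, at 1.72 kb (chr11:69449201-69454200), with a fold of 8.32 and 0 in DMSO and 0 in both GSK-J4 libraries. A region in ALK, the receptor kinase gene mutated in familial neuroblastoma, was 174 kb from a start (chr2:29620601-29622000) and was lost after knockdown, with a fold of 9.22 and 6.53 in siCtrl and 0 and 4.2 in siKDM6B #33. The others lost after knockdown were nearest to JUN, PAXIP1, SEMA6A, SLC18A2, SOX4 and ZNF536. Near JUN, SEMA6A, SLC18A2 and ZNF536 the folds overlapped between siCtrl and siKDM6B #33, and near PAXIP1 and SOX4 they were lower in both siKDM6B #33 libraries. PAXIP1 and SEMA6A also had lost regions in other knockdown states. The regions near DACH1, TWIST1 and KMT2C were called in all 4 knockdown libraries.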

How the data were processed

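H3K4me1 and H3K27me3 CUT&Tag libraries of BE2C cells were analysed from their deposited lists, 1 of broad islands and 1 of narrow peaks per library (32 lists). The authors trimmed reads with Trim Galore 0.4.4, aligned them to hg19 with BWA 0.7.12, marked duplicates with Picard 1.65, handled alignments with SAMtools 1.3.1 and bedtools 2.25.0, and kept fragments of 150 to 2000 bp. The island lists deposited by the authors come from SICER 1.1 (200 bp windows, 600 bp gaps, FDR 1e-05) and give each island a score. The narrow peaks deposited by the authors come from MACS2 (2.1.1 in the submitters' processing notes), with a peak score, a fold enrichment ratio, and −log10 p and −log10 q. Both lists hold values that passed a threshold in a library of its own depth. No read counts were used, replicates were not pooled, and a spike-in scale was not applied. Both H3K27me3 and H3K4me1 libraries are described by the study as biological replicates. With 2 per group, the exact permutation p is 0.33 whenever the groups do not overlap, whatever the spread between these libraries.

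Islands on the 22 autosomes were merged at 1 bp or more of overlap in Python 3.11.15 (pandas, NumPy, SciPy, pysam), and a region was called in a library when it overlapped an island. Depth was solved from the fold and −log10 p of the commonest narrow peaks as the smallest background that gives both. Starts and exons came from the GENCODE 44 basic set lifted to GRCh37. A promoter region lay within 1 kb of a protein-coding start, and the nearest start named a region. Percent of regions called per library was compared by an exact permutation test. Regions were named by the 12 highest lower DMSO scores of each kind, the 5 highest gained and lost after knockdown, the genes nearest to most regions, the fixed gene lists and a list of genes central to the study. The members, gene lists and tests were chosen with earlier results of these data known. Merging, calling and promoter assignment were tested on simulated lists. Alternatives left out each library, equalised the lists, joined or filtered islands, and changed the call or the starts. The sequences are GRCh37 reference sequence.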

Additional observations from a re-analysis of the deposited data

Results flagged for a closer look

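The change in the promoter share minus the distal share of lost regions called for H3K4me1, from siCtrl to siKDM6B #33, was 39.8 percentage points, and it was singled out because both libraries moved up at promoter regions and down at distal regions. The shares went from 84.3% and 81.3% to 93.9% in both libraries at promoters, and from 88.4% and 87.9% to 59.3% and 59.7% at distal regions. The exact permutation test of this difference over 2 libraries against 2 gave p = 0.33, the smallest it can give. With at least 1 narrow peak as the call the change was 15 points, and with narrow peaks of −log10 q of 5 or more it was 29.8 points. Over all merged regions, by island calls, the promoter share rose by 13.3 points and the distal difference was -16.8 points. By at least 1 narrow peak, all promoter regions went from 87.6% and 87.0% to 94.8% and 94.7%, and all distal regions from 88.0% and 87.9% to 80.2% and 79.8%. By the stricter peaks these were 67.8% and 66.6% to 88.5% and 87.9%, and 69.7% and 68.5% to 63.3% and 62.9%. By narrow peaks the change at the lost regions was thus near that of all merged regions.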

How the results depend on the processing

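The number of lost regions depended most on the rule. It was 1741 to 2537 when 1 of the 4 defining libraries was left out, which removes a condition (1956 without DMSO library 1, 2537 without DMSO library 2, 1741 without GSK-J4 library 1 and 2016 without GSK-J4 library 2), and 361 when no narrow peak was allowed in GSK-J4. With an equal covered length per library, taken from the highest scores, 1400 regions were lost, but only 559 of the 1174 (47.6%) overlapped one of them. The promoter share was 29.6% with no narrow peak in GSK-J4 and 41.9% with starts of all gene types, and 33.3% to 34.0% with a library left out.

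The H3K4me1 difference after knockdown ran from -16.0 to -6.46 points with a library left out (the latter without DMSO library 2) and turned to 4.39 points with narrow peaks of −log10 q of 5 or more. With at least 1 narrow peak it was -3.11 points and the promoter minus distal change 15 points, and that change was 37.2 to 45.3 points with a library left out and kept its direction in all 19 alternatives. The H3K27me3 difference with GSK-J4 was 0.170 (without GSK-J4 library 1) to 8.43 points (without GSK-J4 library 2) with a library left out and 11.1 points with equal covered length. That after knockdown was -0.341 to 0 points with a library left out, and turned to 0.0714 with equal covered length, 2.43 with at least 1 narrow peak and 1.15 with −log10 q of 5 or more. The cause of these changes was not tested.

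With the replicate number as a block the differences were -15.3, 4.30, -0.256 and 39.8 points, each with an exact sign-flip p of 0.5, the smallest possible. The labels do not say what a number shares, and the deviations of same-numbered libraries correlated at 0.00536, -0.0463 and 0.191 over the lost regions for H3K4me1 after knockdown, H3K27me3 with GSK-J4 and H3K27me3 after knockdown.

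The scores of the lost regions lie near the caller's limit, the libraries differ in depth, and the exact tests used here cannot give a p under 0.05 with 2 libraries per group.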
